A study of Mus musculus with 31 samples.

Results

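The ribosome biogenesis genes followed here are 40 genes for nucleolar factors and RNA polymerase I, chosen by gene symbol in the probe annotation of the array and not by their measured values. Of the 40, 38 had a probe that the annotation gives to that gene alone, among 19938 genes with such a probe. Noc2l was not analysed here, and Ppan was left out because its probe is shared with another gene. The 38 fall into 6 genes for RNA polymerase I and nucleolar scaffold proteins, 8 for small nucleolar ribonucleoproteins (snoRNPs), 14 for assembly of the small ribosomal subunit and 10 for assembly of the large one.

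The study measured RNA on Affymetrix whole-transcript gene arrays in 9 populations sorted by flow cytometry from the bone marrow of wild-type C57BL/6 mice, with 20000 cells per sample and 31 arrays in all. Within the lineage-negative cells positive for cKit and Sca1, the long-term stem cells (LT-HSC, 4 arrays) lacked Flk2 and CD48 and carried CD150. The short-term stem cells (ST-HSC, 3 arrays) lacked all 3 of these. The multipotent progenitors MPP2 (3 arrays) carried CD48 and CD150 without Flk2, MPP3 (3 arrays) carried CD48 alone, and MPP4 (5 arrays) carried Flk2. Common myeloid progenitors (CMP, 3 arrays) and granulocyte-macrophage progenitors (GMP, 4 arrays) were lineage-negative, cKit-positive and CD34-positive cells without and with the Fc gamma receptor. Pre-granulocytes (PreGr, 3 arrays) were positive for Mac1 with intermediate Gr1, and granulocytes (Gr, 3 arrays) were positive for Mac1 with high Gr1. The labels call the replicates biological and give no age, sex, animal or pool.

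Ribosomes are built in the nucleolus, where RNA polymerase I transcribes the ribosomal RNA precursor and snoRNPs guide its cleavage, methylation and pseudouridylation. Separate sets of assembly factors then fold and trim the precursor into the small and the large subunit, which are finished in the nucleoplasm and cytoplasm. Dividing progenitors of the marrow make many ribosomes, and the MYC transcription factor is known as an activator of nucleolar genes. Neutrophil granulocytes leave the cell cycle as they mature, and their nucleoli become small.

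Arrays fell into 5 sets of 3 to 9 arrays by values identical between arrays, and array medians ranged from 6.19 to 7.83 on the deposited log2 scale. LT-HSC 1 to 3 formed a set of their own, GMP 1 to 3 shared a set with all PreGr and Gr arrays, and MPP4 1 to 3 shared one with CMP. All levels below are therefore quantile-normalized log2 levels, and a change is a difference in log2 level with the set as a block, given with its standard error (SE) from limma. A gene was called where its Benjamini-Hochberg adjusted p over all 19938 genes was under 0.05 in the fit with the set block and, in the same direction, in the fit without it. The adjusted p printed is the larger of both. Among the 8 sort-marker genes, Ly6g was 5.89 higher in PreGr than in GMP and Fcgr3 2.66 higher in GMP than in CMP. Cd48 was 2.92 higher in MPP2 than in ST-HSC, and Slamf1, the gene of CD150, changed by -2.62 from LT-HSC to ST-HSC. These changes followed the gates, and Kit, Cd34 and Itgam are not given here. Flt3, the gene of Flk2, was 3.34 higher in MPP4 than in LT-HSC, but was also called higher in ST-HSC (1.60) and MPP3 (1.31), which were sorted without Flk2. Cd48 was 2.28 higher in MPP2 than in LT-HSC and not called. A list of 12 neutrophil genes had a mean level of 6.13 to 7.82 in the 25 arrays of the other 7 populations, 11.39 to 11.88 in PreGr and 12.87 to 13.05 in Gr. Replicates also differed in sex-linked transcripts. Xist, which is made from the inactive X chromosome, read 5.10 to 6.03 in replicate 1, 9.72 to 11.41 in replicate 2 and 8.25 to 10.24 in replicate 3 of LT-HSC, MPP4, CMP, GMP, PreGr and Gr alike. It was 5.24 to 5.69 in all ST-HSC arrays. Eif2s3y, a gene of the Y chromosome, was 4.10 to 4.51 in LT-HSC 4, MPP2 2, MPP3 3, MPP4 4 and GMP 4 and higher in the others. The part of this in the results was not tested. As each array carries amplified RNA from a fixed number of sorted cells, less RNA per cell and fewer cells of a type cannot be told apart in these levels.

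The ribosome biogenesis genes were high in CMP and GMP and low in the granulocytic cells. The mean deviation of the 38 genes from their own averages over the 9 populations was 0.52 ± 0.02 (SD, n = 4) in GMP and lay between 0.504 and 0.509 in the 3 CMP arrays. In the stem cells and multipotent progenitors it was lower, from 0.05 ± 0.09 (SD, n = 3) in ST-HSC to 0.26 ± 0.05 (SD, n = 4) in LT-HSC. PreGr stood at -0.53 ± 0.07 (SD, n = 3) and Gr at -1.43 ± 0.31 (SD, n = 3). The single Gr arrays ran from -1.70 to -1.09, and their spread was the widest of the 9 populations. The highest population mean was in CMP for 17 genes and in GMP for 12, or 13 and 16 after adjustment for set. The lowest was in Gr for 37 of 38, or 36 after adjustment. For 31 genes every Gr array lay below every array of the 7 populations from LT-HSC to GMP, and for 22 genes every PreGr array did. The counts of highest, lowest and separate populations have no share of all genes beside them, so they describe these 38 genes only.

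**Figure D1:**
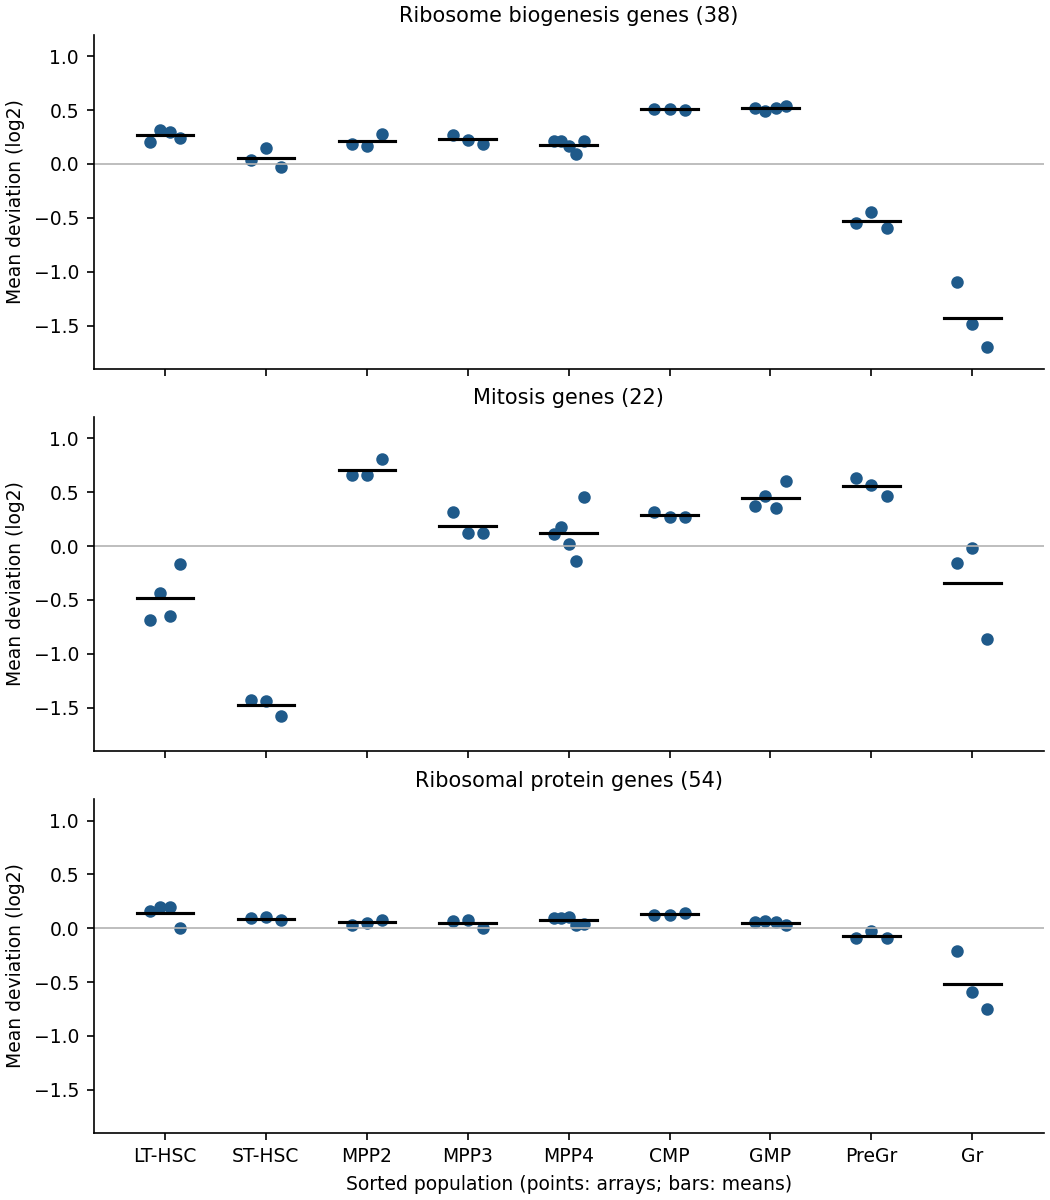
Mean deviation from each gene's average over the 9 populations (log2), for the 38 ribosome biogenesis genes, 22 mitosis genes and 54 ribosomal protein genes, with a point per array and a bar at the population mean. The ribosome biogenesis genes are lower in PreGr (mean -0.53) and Gr (mean -1.43) than in the other populations, while the mitosis genes are lowest in ST-HSC (mean -1.48).

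**Figure D2:**
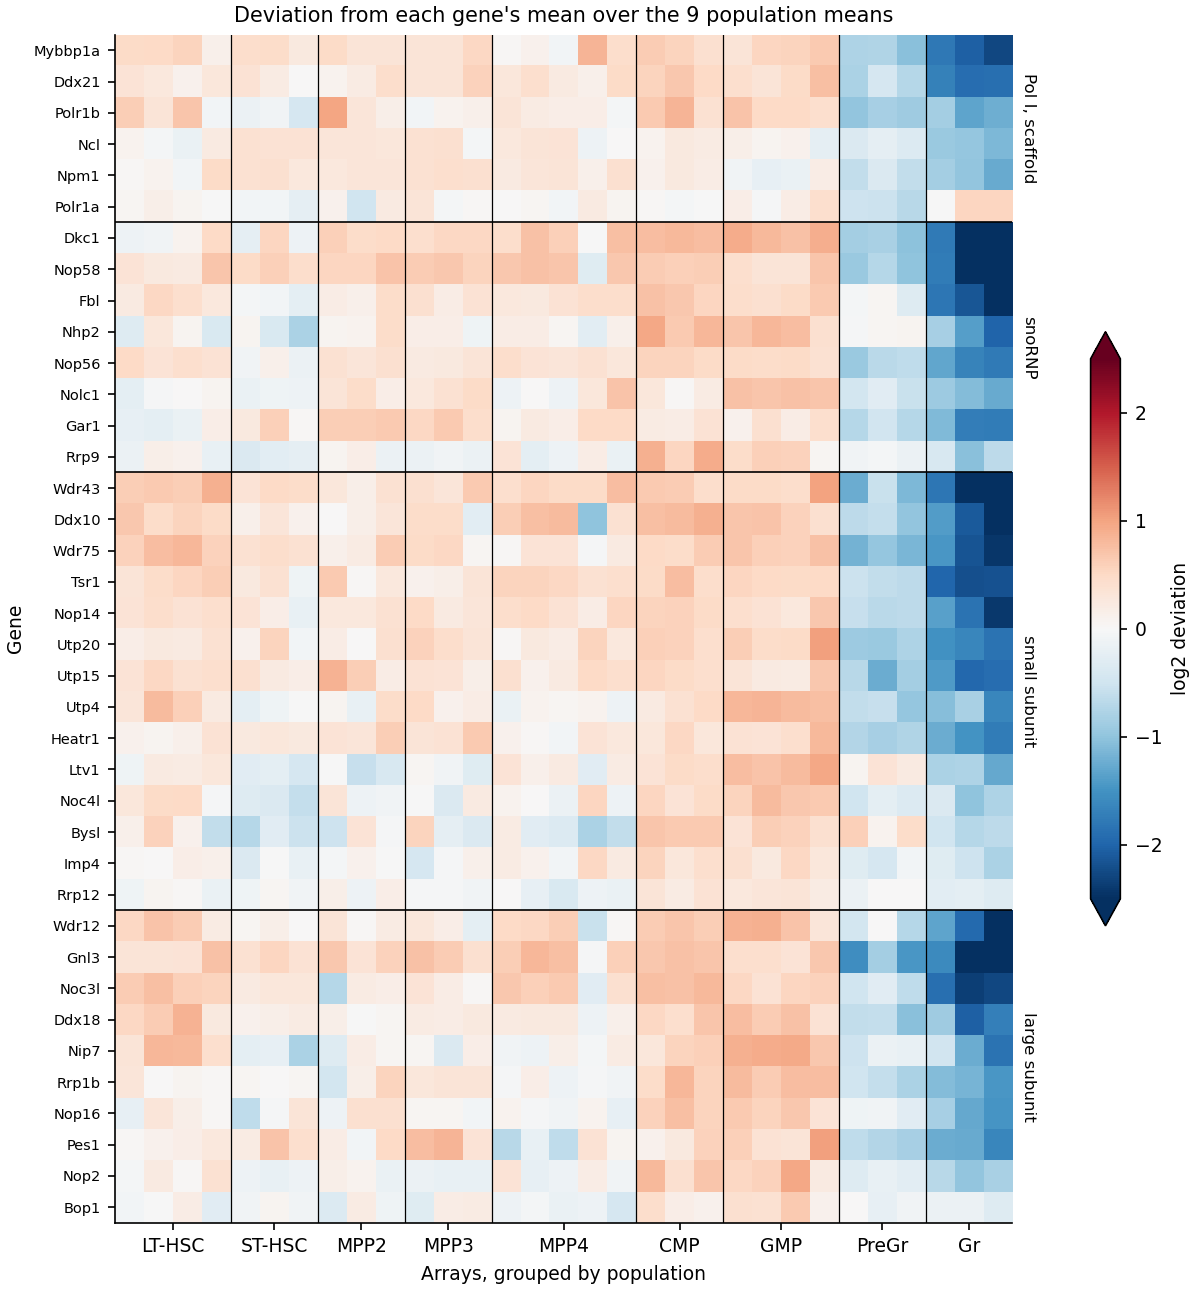
Deviation of each ribosome biogenesis gene from its average over the 9 population means (log2 colour scale, with arrowed ends for values beyond it), with genes in rows by role and the 31 arrays in columns by population. The Gr columns are the bluest in each role, while the Gr arrays of Polr1a (9.03 to 9.59) overlap with its GMP arrays (9.03 to 9.47).

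The promoters of some of these genes hold the letters CACGTG, the E-box that MYC and MAX bind, which reads the same on both strands. In the RefSeq promoter table, build GRCm38.p6, which spans 250 bases before to 50 after each start, 36 of the 40 genes had an entry, and 9 of these (25.0%) held the motif, against 2187 of all 27025 genes (8.09%). The 9 were Imp4, Nop2, Utp4, Ltv1, Utp20, Pes1, Mybbp1a, Tsr1 and Wdr43, and in 7 of them the motif lay after the start, 3 to 41 bases from it. A match describes the letters only. Stretches from 150 bases before to 30 after the start are shown for 4 of these genes, with the motif in capitals and all on the plus strand. They were picked after their values were seen, from genes that fell at both granulocytic steps, to show the motif before the start (Nop2) and after it (Pes1, Tsr1 and Wdr43). They are chr6:125131733-125131912 for Nop2, chr11:3963825-3964004 for Pes1, chr11:74897930-74898109 for Tsr1 and chr17:71616065-71616244 for Wdr43.
Nop2: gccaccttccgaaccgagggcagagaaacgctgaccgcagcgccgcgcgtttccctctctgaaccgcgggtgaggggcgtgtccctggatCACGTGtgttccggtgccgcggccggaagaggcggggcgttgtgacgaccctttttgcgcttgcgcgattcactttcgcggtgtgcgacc
Pes1: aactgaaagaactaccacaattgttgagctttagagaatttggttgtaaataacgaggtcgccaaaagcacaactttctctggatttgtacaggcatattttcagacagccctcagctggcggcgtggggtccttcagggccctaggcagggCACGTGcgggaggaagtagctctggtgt
Tsr1: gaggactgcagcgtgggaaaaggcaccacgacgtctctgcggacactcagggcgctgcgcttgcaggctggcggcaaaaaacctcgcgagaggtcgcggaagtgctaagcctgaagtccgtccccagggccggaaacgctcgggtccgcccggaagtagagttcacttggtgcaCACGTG
Wdr43: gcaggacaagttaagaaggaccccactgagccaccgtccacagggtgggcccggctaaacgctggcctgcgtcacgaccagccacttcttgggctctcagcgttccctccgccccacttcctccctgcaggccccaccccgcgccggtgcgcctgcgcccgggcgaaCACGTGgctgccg

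From GMP to PreGr, the step at which Gr1 and Mac1 appear, 36 of the 38 genes fell and none rose, where 8.98% of all genes were called lower and 6.63% higher. The median change was -1.12, a level 2.18-fold lower, against 0.01 over all genes. All 8 snoRNP genes, all 10 large-subunit genes, 13 of 14 small-subunit genes and 5 of 6 polymerase and scaffold genes were among those that fell. Fbl is counted on its brighter probe. The exceptions were Ncl (nucleolin) and Bysl. Ncl changed by -0.42 ± 0.08 with an adjusted p of 0.0595, and Bysl by -0.13 ± 0.20. The largest falls were those of Wdr75 (-1.72 ± 0.16), Dkc1 (-1.72 ± 0.21), Gnl3 (-1.67 ± 0.23), Utp4 (-1.54 ± 0.18) and Polr1b (-1.48 ± 0.17). For 37 of 38 genes every PreGr array lay below every GMP array, which held for 16.7% of all genes. The set-adjusted changes compare PreGr with GMP 1 to 3, all of 1 set. The calls of Ltv1 and Rrp12 were lost without PreGr 1.

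From PreGr to Gr a further 31 genes fell and 1 rose, where 11.2% of all genes were called lower and 8.12% higher. The median change was -0.86, a level 1.82-fold lower, against 0.02 over all genes. All 8 snoRNP genes fell (Fbl on its brighter probe), as did 9 of 10 large-subunit genes, 10 of 14 small-subunit genes and 4 of 6 polymerase and scaffold genes. The largest falls were those of Fbl (-2.08 ± 0.14), Nop58 (-1.89 ± 0.29), Noc3l (-1.70 ± 0.18), Wdr12 (-1.62 ± 0.22) and Wdr43 (-1.60 ± 0.20), of which that of Fbl was seen on only 1 of its probes, as given with its values. Bop1, Polr1b, Utp4, Rrp12, Noc4l and Imp4 were not called at this step, with changes between -0.12 (Bop1) and -0.46 (Utp4). The calls of Nip7, Npm1 and Rrp1b were lost without Gr 3, and that of Nop2 without Gr 2. Groups did not overlap for 30 genes that were lower and 1 that was higher in Gr, against 18.8% and 20.8% of all genes. Over both steps the change from GMP to Gr had a median of -2.01, a level 4.02-fold lower, and ranged from -3.21 for Dkc1 to 0.24 for Polr1a.

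**Figure D3:**
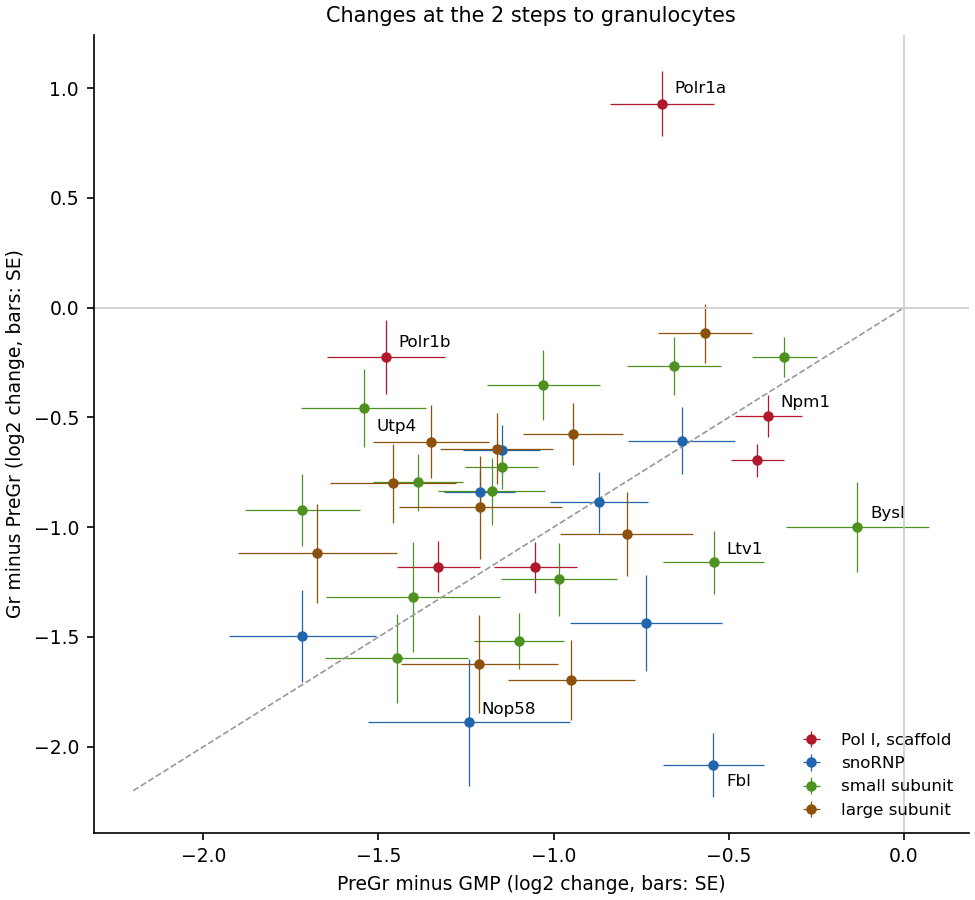
Log2 change from GMP to PreGr (x axis) against that from PreGr to Gr (y axis) for each of the 38 genes, coloured by role, with bars of 1 SE and a dashed line where both are equal. Polr1a is the point above 0 on the y axis, and Fbl (brighter probe) lies lowest, with a change of -2.08 at the later step; the PreGr arrays enter both axes.

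The estimated division of the fall between the steps varied between genes, though for most the difference between the steps did not pass the test below. Among the 37 that were lower at both, the share of the GMP to Gr change found at the first step had a median of 53.4% and ran from 11.7% for Bysl to 86.8% for Polr1b. It exceeded 50% for 22 genes, with a median of 61.1% for the large-subunit genes, 59.4% for the small-subunit genes, 50.3% for the snoRNP genes and 47.1% for 5 polymerase and scaffold genes. The last leaves out Polr1a, which rose at the second step, and the roles were not tested against one another. Polr1b had mean levels of 7.05 in PreGr and 6.83 in Gr, where the deposited array medians of that set were 7.27 to 7.40. Noc3l reached a mean of 6.31 in Gr. Whether a low signal limited the later fall of Polr1b was not tested. The difference between the steps was tested per gene as a contrast added after the data were seen, and 4 of the 38 genes passed, where 4.73% of all genes did. Fbl (brighter probe) fell more at the second step (difference -1.54 ± 0.25, adjusted p = 0.000204). Polr1b (1.25 ± 0.29, adjusted p = 0.018) and Utp4 (1.09 ± 0.31, adjusted p = 0.0319) fell more at the first. Polr1a (1.62 ± 0.26, adjusted p = 0.000169) fell at the first and rose at the second. The PreGr arrays enter both steps, and without any 1 of them the calls of Polr1b and Utp4 were lost. That of Utp4 was also lost without GMP 1, GMP 2 or Gr 2, and within the set. It was lost as well with all probes tested and with arrays scaled to a common median. The call of Fbl was not seen on its other probe, where the difference was 0.19 ± 0.19.

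Polr1a and Polr1b, which encode the catalytic core subunits of RNA polymerase I, went separate ways in Gr. Polr1b levels were 8.68, 8.46, 8.46 and 8.37 in GMP, 6.98, 7.12 and 7.06 in PreGr, and 7.11, 6.63 and 6.74 in Gr. The GMP arrays were all above the others, and PreGr and Gr overlapped. Polr1b fell from GMP to PreGr (adjusted p = 6.54e-07), and changed by -0.22 ± 0.17 from PreGr to Gr (adjusted p = 0.498). Polr1a levels were 9.22, 9.03, 9.23 and 9.47 in GMP, 8.53, 8.52 and 8.36 in PreGr, and 9.03, 9.59 and 9.58 in Gr. Every PreGr array was below every array of the 2 other populations, and Gr overlapped with GMP. Polr1a thus fell by 0.69 ± 0.15 (adjusted p = 0.00143) and then rose by 0.93 ± 0.15 (adjusted p = 4.41e-05). It was the only one of the 38 genes called higher in Gr. In the earlier populations Polr1a read 9.10, 9.20, 9.11 and 9.04 in LT-HSC, 8.98, 8.98 and 8.83 in ST-HSC, and 9.15, 8.55 and 9.26 in MPP2. It read 9.36, 8.996 and 9.08 in MPP3, 9.06, 9.09, 8.98, 9.27 and 9.12 in MPP4, and 9.07, 9.01 and 9.03 in CMP. These arrays ran from 8.55 in MPP2 2, next to the PreGr arrays, to 9.36 in MPP3 1, a span wider than the fall from GMP to PreGr. Polr1a was called in none of the comparisons among the 7 earlier populations.

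Of the other polymerase and scaffold genes, Ncl and Npm1 had smaller changes than Ddx21 and Mybbp1a. Ncl, an RNA-binding protein of the nucleolus, read 12.09, 12.01, 12.05 and 11.72 in GMP, 11.58, 11.72 and 11.60 in PreGr, and 11.01, 10.98 and 10.82 in Gr. It fell by 0.70 ± 0.08 from PreGr to Gr (adjusted p = 0.000197). Npm1, the histone chaperone nucleophosmin, fell by 0.39 ± 0.10 and 0.49 ± 0.10 at the 2 steps (adjusted p = 0.00474 and 0.0047). Ddx21, an RNA helicase of the nucleolus, fell by 1.05 ± 0.12 and 1.18 ± 0.12 (adjusted p = 4.86e-07 and 9.37e-08). Mybbp1a, a nucleolar protein that binds MYB, fell by 1.33 ± 0.12 and 1.18 ± 0.12 (adjusted p = 1.83e-07 and 6.9e-06).

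Of the snoRNP genes, Nop56, Nop58 and Fbl encode core proteins of the box C/D particles that methylate ribosomal RNA, and Fbl is the methyltransferase. Nop56 read 11.40, 11.38, 11.41 and 11.31 in GMP, 10.01, 10.25 and 10.30 in PreGr, and 9.62, 9.26 and 9.16 in Gr. The 3 groups did not overlap. Nop56 fell by 1.21 ± 0.10 and 0.84 ± 0.10 (adjusted p = 3.81e-09 and 1.14e-06), to a level 4.14-fold below GMP. Nop58 read 11.14, 11.05, 11.05 and 11.41 in GMP, 9.79, 10.01 and 9.72 in PreGr, and 8.96, 8.01 and 6.88 in Gr. It fell at both steps (-1.24 ± 0.29 and -1.89 ± 0.29, adjusted p = 0.00291 and 2.59e-05), and its Gr arrays were the most spread of these. The SE pools the spread over all populations, while the SD of the Gr arrays alone was 1.04 (n = 3).

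Fbl has 2 probes that disagreed, and which of them measures Fbl was not settled here, so each Fbl value holds for its probe only. By probe number the brighter lies between the probes of Wdr43 and Bysl, both on chromosome 17. The dimmer lies between those of Nop2 on chromosome 6 and Utp4 on chromosome 8. Fbl is on chromosome 7, and the numbers of most member probes run by chromosome, but probe positions were not checked. The brighter, which stands for the gene, read 11.73, 11.69, 11.77 and 11.94 in GMP, 11.25, 11.34 and 10.97 in PreGr, and 9.49, 9.17 and 8.66 in Gr. On it the 3 groups were apart, and Fbl fell by 0.54 ± 0.14 and 2.08 ± 0.14 (adjusted p = 0.00801 and 2.93e-10). The first of these calls was lost without PreGr 3, in the fit within the set and with arrays scaled to a common median. The dimmer probe read 8.65, 8.83, 8.91 and 8.61 in GMP, 8.46, 8.57 and 8.48 in PreGr, and 8.54, 8.31 and 8.35 in Gr. Its changes in a fit of all probes were -0.29 ± 0.11 and -0.10 ± 0.11, neither called. The probes correlated at 0.41 over the 31 arrays, which share their sets and populations. On the brighter probe Fbl read 11.51, 11.81, 11.72 and 11.56 in LT-HSC, 11.24, 11.22 and 11.05 in ST-HSC, 11.49, 11.42 and 11.75 in MPP2, and 11.69, 11.49 and 11.66 in MPP3. It read 11.56, 11.54, 11.66, 11.73 and 11.73 in MPP4, and 12.02, 11.97 and 11.84 in CMP, which are the levels before the fall. The paired probes of Wdr12 and Ddx18 fell at both steps on either probe. By number the Ddx18 probe that stands for the gene also lies between those of Nop2 and Utp4, while Ddx18 is on chromosome 1. Its other probe follows that of Ncl, on chromosome 1. The 2 Ddx18 probes correlated at 0.95 over the 31 arrays.

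Dkc1, Gar1 and Nhp2 belong to the box H/ACA particles, in which Dkc1 (dyskerin) is the pseudouridine synthase. Dkc1 read 10.87, 10.76, 10.69 and 10.86 in GMP, 9.10, 9.14 and 8.93 in PreGr, and 8.18, 7.45 and 7.05 in Gr. Its GMP to Gr change, to a level 9.28-fold lower, was the largest of the 38 genes (adjusted p = 1.68e-06 and 9e-06 at the 2 steps). Gar1 fell by 0.87 ± 0.14 and 0.89 ± 0.14. Nhp2 fell by 0.74 ± 0.22 and 1.44 ± 0.22, the first with an adjusted p of 0.0308 that was lost without any single PreGr array or any of GMP 1 to 3. Nolc1, a chaperone of both kinds of particle, fell by 1.15 ± 0.11 and 0.65 ± 0.11.

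Rrp9, a protein of the snoRNP that takes part in cleavage of the precursor, had its highest mean in CMP. It read 8.69, 8.33 and 8.73 in CMP and 8.25, 8.38, 8.38 and 7.85 in GMP, then 7.72, 7.74 and 7.65 in PreGr and 7.40, 6.75 and 7.13 in Gr. Earlier it read 7.65, 7.94, 7.90 and 7.61 in LT-HSC, 7.42, 7.53 and 7.57 in ST-HSC, and 7.86, 7.95 and 7.65 in MPP2. It read 7.65, 7.71 and 7.64 in MPP3 and 8.13, 7.55, 7.66, 7.99 and 7.63 in MPP4. PreGr arrays thus lay within the range of the stem cell arrays, and only Gr lay below it. Rrp9 fell by 0.63 ± 0.15 and 0.61 ± 0.15 at the granulocytic steps (adjusted p = 0.0176 and 0.00719). The first call was lost without GMP 2, GMP 3, PreGr 1 or PreGr 3 and the second without Gr 2, and both with the deposited values.

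Among the 14 small-subunit genes, the largest falls from GMP to PreGr were those of Wdr75 and Utp4, which encode parts of the processome that assembles on the precursor while it is transcribed. Wdr75 read 10.17, 10.08, 10.06 and 10.21 in GMP, 8.30, 8.51 and 8.35 in PreGr, and 8.02, 7.32 and 7.06 in Gr. Utp4 read 10.03, 10.03, 9.99 and 9.95 in GMP, 8.58, 8.61 and 8.23 in PreGr, and 8.12, 8.38 and 7.56 in Gr. Wdr75 separated all 3 groups, while for Utp4 PreGr and Gr overlapped. Wdr75 fell at both steps (adjusted p = 4.39e-08 and 0.000169) and Utp4 at the first only (adjusted p = 7.26e-07, then 0.0696). Wdr43, Utp15, Heatr1, Utp20 and Nop14, further processome proteins, fell at both steps. Wdr43 fell by 1.45 ± 0.20 and 1.60 ± 0.20, and Nop14 by 0.99 ± 0.17 and 1.24 ± 0.17. Tsr1, which acts on late precursors of the small subunit in the cytoplasm, fell by 1.10 ± 0.13 and 1.52 ± 0.13 (adjusted p = 7.86e-07 and 7.37e-09).

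Bysl and Ltv1, factors of later small-subunit maturation, had smaller changes from GMP to PreGr. Bysl read 8.59, 8.87, 8.83 and 8.65 in GMP, 8.84, 8.33 and 8.72 in PreGr, and 7.76, 7.54 and 7.60 in Gr. GMP and PreGr overlapped and Gr was lower than both. Bysl fell by 1.00 ± 0.20 at the second step (adjusted p = 0.00483). Ltv1, an adaptor shed late in assembly, fell by 0.54 ± 0.14 and then 1.16 ± 0.14 (adjusted p = 0.00858 and 2.56e-06). For neither gene did the difference between the steps pass the test. Noc4l (-1.03 ± 0.16), Imp4 (-0.66 ± 0.13), a protein of the processome, and Rrp12 (-0.34 ± 0.09), an export factor, fell at the first step and were not called at the second.

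Of the large-subunit genes, Pes1, Bop1 and Wdr12 encode the 3 proteins of the PeBoW complex, which is needed for processing of the large-subunit precursor. Their changes from GMP to Gr, as sums of both steps, were -1.81, -0.69 and -2.83. Wdr12 fell at both steps (adjusted p = 0.00278 and 5.73e-05), and Bop1 at the first only (-0.57 ± 0.14, adjusted p = 0.0198), a call lost without GMP 3, PreGr 2 or PreGr 3 and with the deposited values. Pes1 fell by 1.16 ± 0.16 and 0.64 ± 0.16, the second with an adjusted p of 0.0402 that was lost without any single PreGr array, Gr 2 or Gr 3. Gnl3 (nucleostemin), a nucleolar GTPase, read 10.79, 10.79, 10.71 and 11.05 in GMP, 8.81, 9.53 and 8.92 in PreGr, and 8.78, 7.41 and 7.71 in Gr. It fell at both steps (adjusted p = 6.9e-06 and 0.000791), to a level 6.93-fold below GMP. The helicase gene Ddx18 fell by 1.46 ± 0.18 and 0.80 ± 0.18, Nip7 by 1.21 ± 0.23 and 0.91 ± 0.23, and Noc3l by 0.95 ± 0.18 and 1.70 ± 0.18.

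The methyltransferase gene Nop2 read 9.51, 9.57, 9.96 and 9.21 in GMP, 8.67, 8.81 and 8.73 in PreGr, and 8.30, 7.99 and 8.19 in Gr. It fell by 0.94 ± 0.14 and 0.57 ± 0.14 (adjusted p = 0.000121 and 0.008). Nop16 read 10.26, 10.16, 10.28 and 9.95 in GMP, 9.49, 9.51 and 9.33 in PreGr, and 8.78, 8.31 and 8.14 in Gr. The groups of both genes did not overlap. Nop16 fell by 0.79 ± 0.19 and 1.03 ± 0.19 (adjusted p = 0.00379 and 0.000216). Rrp1b, a nucleolar protein of the large-subunit precursors, read 9.24, 9.07, 9.21 and 9.22 in GMP, 7.96, 7.85 and 7.66 in PreGr, and 7.37, 7.28 and 6.99 in Gr. It too separated the 3 groups, with falls of 1.35 ± 0.17 and 0.61 ± 0.17 (adjusted p = 1.76e-06 and 0.0075).

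**Figure D4:**
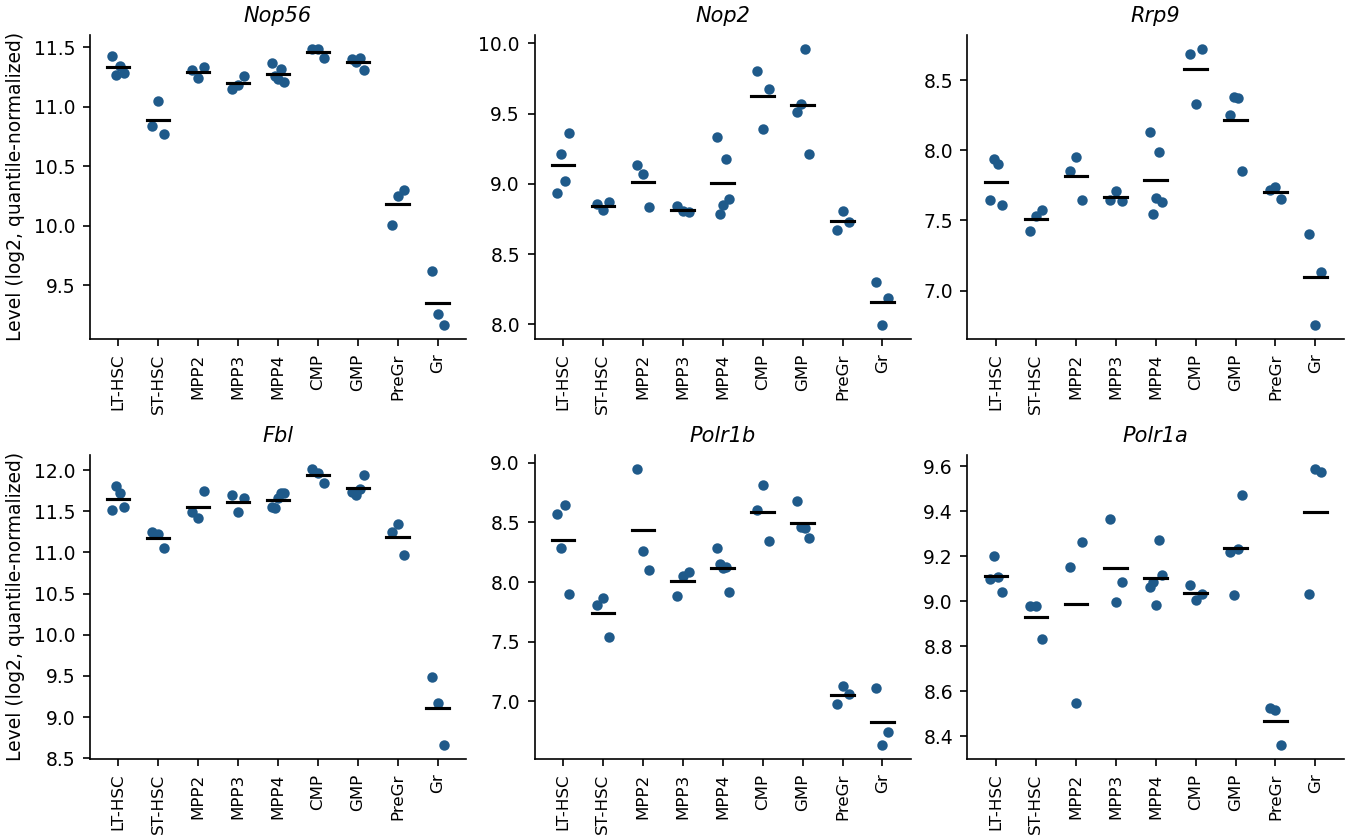
Quantile-normalized log2 level of 6 ribosome biogenesis genes in the 9 populations, with a point per array, a bar at the population mean and a separate y axis for each gene. Nop56, Nop2, Rrp9 and Fbl (brighter probe) are lowest in Gr, Polr1b is low in PreGr and Gr alike, and Polr1a is low in PreGr but between 9.03 and 9.59 in Gr.

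Between MPP4 and CMP, the step from a lymphoid-leaning multipotent gate to a myeloid one, 6 of the 38 genes rose and none fell, where 2.57% of all genes were called higher and 1.46% lower. They were Bysl (0.81 ± 0.20), Rrp9 (0.80 ± 0.15), Nop16 (0.64 ± 0.19), Nop2 (0.63 ± 0.14), Rrp1b (0.61 ± 0.17) and Rrp12 (0.49 ± 0.09). By role these are 3 of 10 large-subunit genes, 2 of 14 small-subunit genes and 1 of 8 snoRNP genes, with none of the 6 polymerase and scaffold genes. The median change of the 38 was 0.30 against 0.02 over all genes. For 19 of the 38 every CMP array was above every MPP4 array, which held for 9.69% of all genes.

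Nop2 read 9.33, 8.78, 8.85, 9.18 and 8.89 in MPP4 against 9.80, 9.39 and 9.67 in CMP (adjusted p = 0.00841). Nop16 read 9.69, 9.57, 9.51, 9.68 and 9.40 in MPP4 against 10.18, 10.36 and 10.17 in CMP (adjusted p = 0.0399). Rrp1b read 8.42, 8.62, 8.32, 8.41 and 8.36 in MPP4 against 8.91, 9.27 and 9.01 in CMP (adjusted p = 0.0253). In each of these the groups did not overlap, and for Nop2 MPP4 1 came closest to CMP. The call of Nop16 was lost without any single one of MPP4 1 to 3 or CMP 1 to 3, with all probes tested and with the replicate number as a block. That of Nop2 was lost without MPP4 2, MPP4 3, CMP 1 or CMP 3, that of Rrp1b without MPP4 1, MPP4 3, CMP 2 or CMP 3, and that of Bysl without MPP4 2, MPP4 3 or CMP 1. Rrp9 rose with an adjusted p of 0.00198, Rrp12 with 0.002 and Bysl with 0.0167. Bysl read 8.46, 7.98, 7.91, 7.46 and 7.65 in MPP4 and between 8.92 and 8.94 in CMP. The set-adjusted change compares CMP with MPP4 1 to 3. The number called was 13 within that set alone and 25 with arrays scaled to a common median, and fell to 2 or 3 without MPP4 2, MPP4 3, CMP 1 or CMP 3. The shares of all genes given above do not hold for these settings, so these counts stand without a background. Transcripts of other lineages rose here as well, with 4 of 8 megakaryocyte markers and 4 of 11 erythroid markers called higher. The erythroid list had a mean level of 7.01 to 7.39 in MPP4 and 7.87 to 7.98 in CMP, the megakaryocyte list 7.16 to 7.44 and 8.36 to 8.54, and their part in the result was not tested.

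Between CMP and GMP limma called 0 of the 38 genes, where 1.04% of all genes were called. The median change was 0.07, and -0.05 with arrays scaled to a common median. At an unadjusted p under 0.05 the count was 3 with the set block and 5 without. The share of all genes at that threshold is not given, so nothing is read from these counts. The set-adjusted change rests on GMP 4, which is tied to CMP through the MPP4 arrays of both sets. The single changes ran from -0.76 ± 0.27 for Rrp9 to 0.82 ± 0.26 for Ltv1, so differences of this size were not resolved.

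Within the stem cell and multipotent gates few of the genes were called. Between ST-HSC and MPP2, 2 genes rose and none fell, where 2.80% of all genes were called higher and 3.78% lower. These were Nop56 (0.41 ± 0.10, adjusted p = 0.0126) and Polr1b (0.70 ± 0.17, adjusted p = 0.017). Nop56 read 10.84, 11.05 and 10.77 in ST-HSC and 11.31, 11.24 and 11.33 in MPP2, without overlap. Polr1b read 7.81, 7.87 and 7.54 in ST-HSC and 8.95, 8.26 and 8.10 in MPP2, where MPP2 1 was the highest of all 31 arrays. Both calls were lost without ST-HSC 3, with arrays scaled to a common median and in the fit within their set, that of Polr1b also without MPP2 1, and that of Nop56 also without ST-HSC 1. Of 11 erythroid markers 5 rose here and of 8 megakaryocyte markers 3 did, with list levels of 7.16 to 7.26 and 7.77 to 8.02 in ST-HSC and of 7.86 to 8.01 and 8.32 to 8.61 in MPP2, and their part in the result was not tested. Nop56 also read 11.43, 11.27, 11.34 and 11.28 in LT-HSC, 11.15, 11.18 and 11.26 in MPP3, 11.37, 11.26, 11.23, 11.31 and 11.21 in MPP4, and 11.49, 11.48 and 11.41 in CMP. ST-HSC was thus the lowest of the 7 earlier populations for this gene.

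Between ST-HSC and MPP3 limma called 0 of 38 genes, where 2.35% of all genes were called, with a median change of 0.20. At an unadjusted p under 0.05 there were 7 with the set block and 5 without, and 31 of the 38 changes were above 0. The shares of all genes for these counts are not given, and the 38 genes vary together, so no rise is read from them. Nolc1 was 0.45 higher in MPP3, with adjusted p of 0.0433 and 0.0643 in the fits with and without the set. Between MPP3 and MPP2 limma called 0 of 38 as well, where 0.662% of all genes were called, with 3 and 1 at an unadjusted p under 0.05 and a median of -0.04. For these unadjusted counts too the shares of all genes are not given.

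Mitosis genes were compared over the same steps. All 22 measured rose from ST-HSC to MPP2, with a median change of 2.14, and 21 rose from ST-HSC to MPP3, with a median of 1.76. Over the same comparisons the median changes of the ribosome biogenesis genes were 0.13 and 0.20. From GMP to PreGr limma called 0 of 22 mitosis genes (3 and 1 at an unadjusted p under 0.05 with and without the set block), with a median change of 0.15, while 36 of 38 ribosome biogenesis genes fell. The shares of all genes for the unadjusted counts are not given. From PreGr to Gr 17 of the 22 mitosis genes fell, with a median of -0.87. These comparisons share populations, and no test of one list against the other was made.

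Against LT-HSC, limma called 0 of 38 genes in each of ST-HSC, MPP2, MPP3 and MPP4 in both fits, where 0.537%, 4.45%, 4.02% and 1.99% of all genes were called. The fit without the set block alone called 8 (1 higher and 7 lower in ST-HSC), 6, 3 and 4. At an unadjusted p under 0.05 there were 1, 3, 4 and 4 with the set block and 12, 11, 11 and 6 without it. The shares of all genes above are for calls in both fits and are no background for these counts. As LT-HSC 1 to 3 form a set of their own, the fit without the block mixes set with population. The median changes were -0.28, -0.10, -0.02 and -0.07, against 0.09, 0.16, 0.10 and 0.05 over all genes. With the set block each of these changes rests on LT-HSC 4 as the only LT-HSC array, and for MPP3 it sets MPP3 3 alone against LT-HSC 4. In ST-HSC 30 of the 38 changes were below 0, and for 18 genes every ST-HSC array was below every LT-HSC array, against 17.1% of all genes. The genes vary together, and no share of all genes is given for the count of signs. Nop2 read 8.94, 9.21, 9.02 and 9.36 in LT-HSC, 8.86, 8.81 and 8.87 in ST-HSC, 9.14, 9.07 and 8.83 in MPP2, and 8.84, 8.80 and 8.80 in MPP3. For Nop2 every LT-HSC array lay above those of ST-HSC and MPP3, with overlap with MPP2, and for Nop16 all 4 populations overlapped. Nop16 read 9.39, 9.90, 9.74 and 9.64 in LT-HSC, 8.96, 9.58 and 9.92 in ST-HSC, 9.47, 9.9999 and 10.01 in MPP2, and 9.66, 9.65 and 9.53 in MPP3. Rrp1b read 8.75, 8.45, 8.51 and 8.48 in LT-HSC, 8.50, 8.45 and 8.49 in ST-HSC, 7.98, 8.59 and 8.99 in MPP2, and 8.73, 8.76 and 8.76 in MPP3. The MPP2 arrays were the most spread for Rrp1b, with MPP2 1 the lowest.

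In a wider list of 119 other ribosome biogenesis genes, 77 fell and none rose from GMP to PreGr, with a median change of -0.57, where 8.98% of all genes were called lower. From PreGr to Gr 66 fell and none rose, with a median of -0.56, against 11.2% of all genes. Of 13 other polymerase I genes, 6 fell at the first step, among them Taf1a (-1.31 ± 0.36), a promoter selectivity factor, Polr1e (-1.07 ± 0.14), a polymerase subunit, and Rrn3 (-0.79 ± 0.18), the initiation factor. At the second step 4 fell, among them Rrn3 (-0.99 ± 0.18), Twistnb (-0.89 ± 0.14) and Polr1c (-0.56 ± 0.13). Of 8 other snoRNP genes 5 fell at the first step and 7 at the second. Shq1 (-1.37 ± 0.22) and Naf1 (-1.28 ± 0.18), both H/ACA assembly factors, and Ruvbl1 (-1.04 ± 0.16) led the first, and Naf1 (-1.82 ± 0.18), Nop10 (-1.66 ± 0.30) and Ruvbl1 (-1.38 ± 0.16) the second.

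Of 39 other small-subunit genes 26 fell from GMP to PreGr, led by Wdr36 (-1.19 ± 0.16), Nat10 (-1.05 ± 0.15), an RNA acetyltransferase, and Rcl1 (-1.04 ± 0.16). From PreGr to Gr 21 fell, led by Esf1 (-1.40 ± 0.21), Dimt1 (-1.36 ± 0.22), an RNA methyltransferase, and Nop9 (-1.22 ± 0.13). Of 46 other large-subunit genes 32 fell at the first step, led by Ftsj3 (-1.42 ± 0.17), Pinx1 (-1.35 ± 0.29) and Rrp15 (-1.30 ± 0.14). At the second 27 fell, led by Rrs1 (-1.86 ± 0.22), Sdad1 (-1.86 ± 0.19) and Rpf2 (-1.49 ± 0.26). Of 13 genes of the RNA exosome and its partners, which trim precursor RNA, 8 fell at the first step and 7 at the second, with Dis3 (-1.29 ± 0.19 and -1.36 ± 0.19), a catalytic subunit, and Exosc8 (-1.18 ± 0.28 and -0.97 ± 0.28) in the lead at both. From MPP4 to CMP 3 of the 119 rose (Exosc5, Rrp8 and Eif6) and none fell, with a median of 0.17, a share near the 2.57% of all genes called higher. The number was 38 with arrays scaled to a common median, for which the share of all genes is not given here. From ST-HSC to MPP2 5 rose, among them Exosc2 (0.69), Ftsj3 (0.61) and Nop9 (0.58), and 2 fell, Taf1a (-1.62) and Nmd3 (-0.48).

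Ribosomal protein genes encode the protein parts of the finished ribosome. From GMP to PreGr 3 of 54 measured genes fell, a smaller share than the 8.98% of all genes called lower, namely Rpl14 (-0.90 ± 0.24), Rpl12 (-0.86 ± 0.14) and Rpl6 (-0.38 ± 0.13), with a median change of -0.10. From PreGr to Gr 32 of 54 fell, led by Rplp1 (-1.49 ± 0.25), Rpl10a (-1.43 ± 0.23) and Rpl14 (-1.32 ± 0.24), with a median of -0.34, where 11.2% of all genes were called lower. The difference between the steps was called for 4 of the 54. The second count was 22 with arrays scaled to a common median. Their mean level was 12.20 to 12.49 in every array but those of Gr, where it was 11.54 to 12.08, on a scale that reached 14.29 in the deposited values. Many of these genes have processed pseudogenes, and 24 of the 78 listed had no probe of their own.

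Myc, the transcription factor gene that the E-box count refers to, fell at the same steps. It read 11.13, 10.95, 10.93 and 11.33 in GMP, 8.88, 9.06 and 8.90 in PreGr, and 8.13, 7.09 and 7.22 in Gr. From LT-HSC to CMP its arrays lay between 11.17 and 11.88. In CMP Myc read 11.68, 11.65 and 11.65, above every GMP array, while the mean deviation of the 38 genes was 0.51 in CMP and 0.52 in GMP. The GMP, PreGr and Gr groups did not overlap with one another. Myc fell by 2.05 ± 0.17 (adjusted p = 2.26e-09) and 1.46 ± 0.17 (adjusted p = 4.94e-07). Mxd1, a partner of MAX that represses E-box genes, rose by 1.09 ± 0.22 and 2.46 ± 0.22 (adjusted p = 0.000592 and 1.28e-08). Mxd1 read 8.05, 8.18, 8.02 and 7.98 in GMP, 9.72, 8.74 and 9.06 in PreGr, and 11.12, 11.65 and 12.14 in Gr. Max and Mxi1 rose by 0.38 and 0.37 at the first step and by 0.62 and 0.38 at the second. With arrays scaled to a common median Max was called at neither step and Mxi1 at the first only. Mycn, of the same family as Myc, had mean levels of 8.06 in CMP, 7.01 in GMP, 6.87 in PreGr and 6.90 in Gr. The part of these factors in the levels of the ribosome biogenesis genes was not tested.

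Markers of other cells moved with the granulocytic steps. From GMP to PreGr all 12 neutrophil markers rose, with a median change of 4.70, as did 6 of 11 B-cell and plasma-cell markers, 7 of 11 T-cell and NK-cell markers and 5 of 11 macrophage markers. The mean level of the B-cell and plasma-cell list was 6.83 to 6.93 in GMP, 7.72 to 8.32 in PreGr and 7.98 to 8.80 in Gr. That of the T-cell and NK-cell list was 6.71 to 6.90, 7.79 to 7.90 and 7.31 to 7.79, and that of the macrophage list 7.29 to 7.47, 8.01 to 8.16 and 7.43 to 7.75. The gates of PreGr and Gr name no lineage exclusion. Jchain (4.71), Gzma (3.75) and Cd3d (3.24), secretory or lymphoid genes, had the largest of these rises outside the neutrophil list, and Pax5 and Vpreb1 were not called. The level of the B-cell and plasma-cell list was 8.36 to 8.88 in MPP3. The part of these markers in the result was not tested.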

How the data were processed

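RNA from 31 sorted samples was measured on Affymetrix gene arrays. Per the submitters' processing notes the authors used RMA (no version named), which gives log2 values per probe set. Of 35557 probes, 21789 had 1 gene in the platform annotation, and the brightest stood for each of 19938 genes. Values were quantile-normalized here, and 11 comparisons, plus 1 contrast added after the data were seen, were fitted to the 31 arrays together (limma 3.58.1, R 4.3.3), with and without array set as a block (18 and 22 residual degrees of freedom), and tested on simulated data. Sets are linked by 2 or more identical values and are not named in the labels, and the block takes a gene's shift between sets as equal across populations. P-values and SEs rest on 1 estimate of spread per gene, shared by all populations. They do not show where a single population, such as Gr, was more spread. The number of samples limits the precision. The members, lists, tests and alternatives were chosen with earlier results of these data known. Per-array values are given for the 6 genes called in the most comparisons (ties by largest change), for genes called against the rest, and for others picked after their values were seen. Up to 5 called genes a direction are named per comparison, and up to 3 in the other pathway lists. Same-numbered arrays of 2 populations were checked for shared deviations: in the fit without set every pair correlated above 0.1 only for MPP4 against LT-HSC, where the numbers also follow the sets, and no gene was called there with the number as a block. Alternatives were scaling, probe choice, filter, variance model, replicate block, fits within a set and leaving out each array. Plots were made in matplotlib 3.10.9 (Python 3.11.15).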

Additional observations from a re-analysis of the deposited data

Results flagged for a closer look

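Of 117 groups of 4 or 5 arrays, 7 (5.98%) held an array whose gap to the next exceeded Dixon's 95% critical value, where chance flags about 1 in 20. In MPP4 4 the lowest values were 10.42 for Nop58 (other MPP4 arrays 11.39 to 11.45), 8.94 for Ddx10 (10.31 to 10.74), 8.19 for Noc3l (8.87 to 9.15) and 10.34 for Gnl3 (10.97 to 11.21). In LT-HSC 4 the highest values were 11.80 for Wdr43 (other LT-HSC arrays 11.52 to 11.57) and 11.10 for Gnl3 (10.70 to 10.72). In GMP 4 the highest was 11.90 for Wdr43 (11.34 to 11.39). All of these arrays belong to the same set of 5, which holds LT-HSC 4, MPP3 3, MPP4 4, MPP4 5 and GMP 4, and the set-adjusted changes against LT-HSC rest on LT-HSC 4.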

How the results depend on the processing

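No called change reversed under the alternatives run. At the granulocytic steps 25 to 37 genes were called from GMP to PreGr and 25 to 33 from PreGr to Gr, the lowest of each with the deposited values. In the fit without the set block 8 genes were called in ST-HSC against LT-HSC, 6 in MPP2, 3 in MPP3 and 4 in MPP4 against LT-HSC, and 1 in GMP against CMP. With arrays scaled to a common median the number was 1 for MPP2 and 1 for MPP3 against LT-HSC, 0 for MPP2 against ST-HSC and 25 for CMP against MPP4. The deposited values gave 0 for MPP2 against ST-HSC and 2 for the difference between the steps. For MPP3 against ST-HSC 1 gene was called with the set-adjusted fit alone, with dim genes left out and with the replicate block. Fits within a set gave 1 for MPP2 against ST-HSC and 13 for CMP against MPP4. The shares of all genes called under these settings are not given here, and the cause of these moves was not tested. Leaving out 1 array at a time gave 2 to 7 for CMP against MPP4, 0 to 3 for MPP2 against ST-HSC, 0 to 1 for MPP2 against LT-HSC and MPP3 against ST-HSC, 32 to 37 for PreGr against GMP, 28 to 33 for Gr against PreGr and 2 to 5 for the difference between the steps. It gave 0 throughout for the 5 other comparisons. In the set-adjusted fit LT-HSC 4 could not be left out of any comparison with LT-HSC, nor GMP 4 of GMP against CMP. MPP3 3 could not be left out for ST-HSC, MPP2 and MPP3 against LT-HSC. The labels do not say that equal numbers mark shared animals, although Xist levels followed the replicate number in 6 populations. The replicate block ended the call of Nop16 for CMP against MPP4 and moved the count for MPP3 against ST-HSC from 0 to 1. It changed no other count by over 1.5 times. With it 37 genes were called for PreGr against GMP, 32 for Gr against PreGr and 6 for CMP against MPP4. It could not be fitted with the set for ST-HSC, MPP2 and MPP3 against LT-HSC. With the set block the median change of all genes against LT-HSC lay between 0.01 and 0.16 under the 3 scalings, and with deposited values and no set block it reached 1.35.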
